A study of Mus musculus with 6 samples.

Results

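The peaks described here lay near the 6 mouse genes of the natriuretic peptide system, the peptide genes Nppa, Nppb and Nppc and the receptor genes Npr1, Npr2 and Npr3. A peak was included when its summit lay within 100 kb of the mm10 interval of a member gene. This gave 3 of the 8019 peaks in the series, with 2 of 3640 in the doxycycline list and 1 of 4379 in the untreated list. The gene family was chosen with a strong doxycycline peak near Nppb and Nppa already known, and the peaks were chosen by position, so their presence near these genes is given as a description with no test.

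Binding of a tagged GLI3R, the repressor form of the Hedgehog transcription factor GLI3, was profiled by ChIP-seq in mouse embryonic stem cell-derived cardiac progenitors. The treated cells were given 500 ng/ml doxycycline for 24 h from day 5 to switch on the tagged protein and collected on day 6, and gave 2 streptavidin pull-downs and 1 input. Untreated cells of the same day gave 2 streptavidin pull-downs and 1 input. Both groups were of the GLI3R-FTA line in the A2Lox.cre strain, so the untreated cells carry the tagged gene too, and both are cultured progenitors of a single line. The labels' treatment text speaks of GLI1, but titles, line and pull-down labels all give GLI3R, which is used here. Each condition had 1 peak list, so no value below has a replicate error. The lists hold binding and no expression, so the labelled cell type was not checked against markers.

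Nppa and Nppb encode atrial and B-type natriuretic peptide, hormones of heart muscle that lower blood pressure and volume, and Nppa is a classical marker of the chamber myocardium of the embryonic heart. Nppc encodes C-type natriuretic peptide, known for its part in the growth of long bones and in blood vessels. Npr1 and Npr2 encode receptors that are guanylyl cyclases and make cyclic GMP, the first answering atrial and B-type peptide and the second C-type peptide. Npr3 encodes the receptor that binds these peptides and clears them from the circulation. Without Hedgehog ligand, GLI3R occupies GLI target genes and keeps them low.

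The promoters of Nppb and Nppa are shown because both genes lie on the same side of the strongest peak and neither had a listed peak at its start. These are the 250 bases before each start on the plus strand, from RefSeq (GRCm38.p6), at chr4:147985650-147985899 for Nppb and chr4:148000472-148000721 for Nppa. The Nppb start used is 147985900, inside its gene interval, which begins at 147985786. The last part of the Nppb sequence, with its marked matches, therefore lies within that interval. Capitals mark matches, on either strand, to the TATA box letters TATAAAA, to GATAA, which GATA factors such as the heart regulator GATA4 recognise, and to TCACACC, an element of T-box factors such as TBX5.
Nppb: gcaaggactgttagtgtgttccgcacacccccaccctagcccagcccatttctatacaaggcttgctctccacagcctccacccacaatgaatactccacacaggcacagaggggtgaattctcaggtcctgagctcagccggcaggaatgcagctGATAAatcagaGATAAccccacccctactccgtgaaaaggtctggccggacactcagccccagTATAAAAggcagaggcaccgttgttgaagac
Nppa: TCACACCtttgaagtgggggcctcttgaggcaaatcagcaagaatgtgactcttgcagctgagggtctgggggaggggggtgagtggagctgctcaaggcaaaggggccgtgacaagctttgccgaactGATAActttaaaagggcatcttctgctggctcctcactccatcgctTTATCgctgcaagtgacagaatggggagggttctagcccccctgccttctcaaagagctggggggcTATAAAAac
Nppb holds GATAA at 94 and 83 bases before the start and TATAAAA at 31. Nppa holds TCACACC at 250 bases before the start, GATAA at 121, its reverse complement TTATC at 75 and TATAAAA at 9. These motifs were picked after the sequences were seen. In all 32851 RefSeq promoter windows (250 bases before to 50 after the start), 5.48% held TATAAAA, 25.4% held GATAA and 3.98% held TCACACC. The GLI consensus TGGGTGGTC was in 0 of the 6 member windows and in 0.253% of all windows, and with 1 mismatch allowed in 0 of the 6 and in 6.74% of all. A match is not a site, and no match says only that the letters are not in this window.

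Of the 6 member genes, 3 had a doxycycline summit within 100 kb (Nppb, Nppa and Npr3), and 1 had an untreated summit (Npr2). None had both, and Nppc and Npr1 had neither. Over 21887 protein-coding genes, 31.3% lay within 100 kb of a doxycycline summit and 30.2% within 100 kb of an untreated one. A doxycycline summit alone was found at 21.1% of all genes, an untreated summit alone at 19.9%, both at 10.3% and neither at 48.7%. The 3 genes with a doxycycline summit share 2 peaks, so they are not independent counts.

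**Figure D1:**
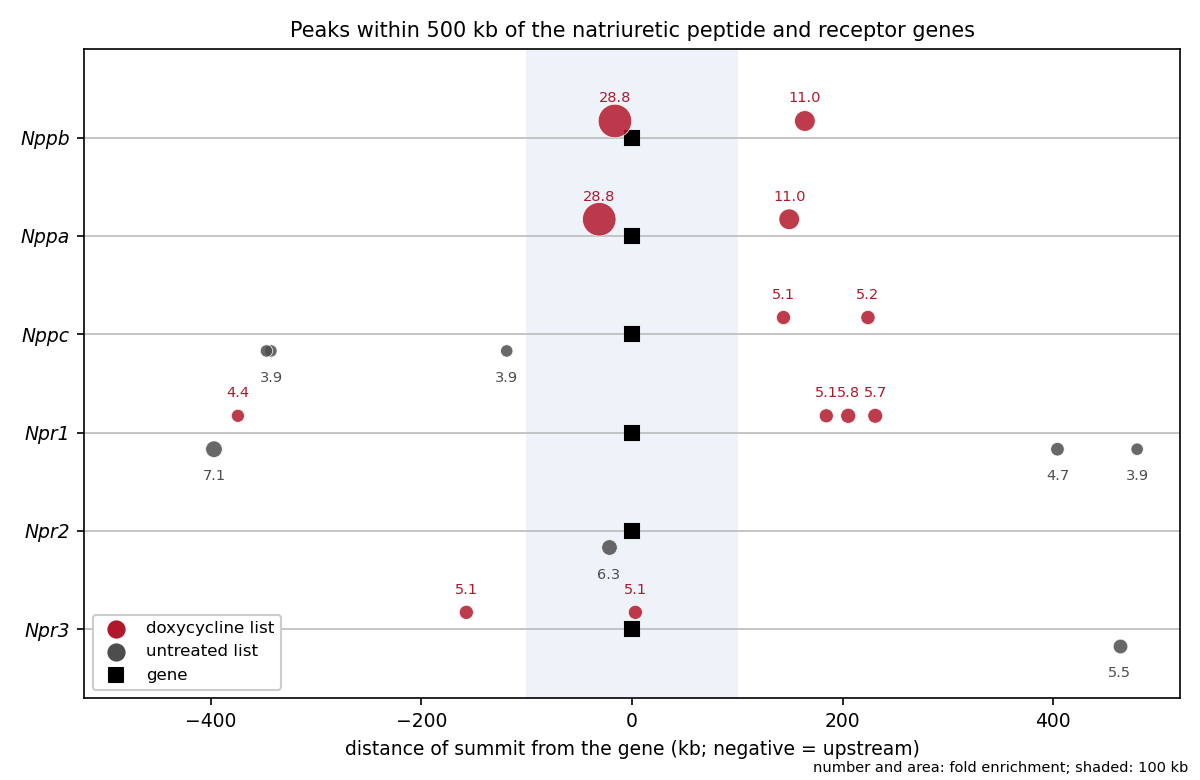
Listed summits within 500 kb of each member gene, with distance from the gene in kb along its own direction on the x axis and 1 row per gene. Doxycycline summits are drawn above and untreated summits below each row, circle area and number give fold enrichment (2 untreated circles of 3.93-fold near Nppc share a number), squares are the genes and shading covers 100 kb. The largest circle, 28.8-fold, lies upstream of both Nppb and Nppa, and only Npr2 has an untreated circle inside the shading.

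The peptide genes of the heart shared the tallest of these peaks. In the doxycycline list it spanned chromosome 4, 147969250 to 147969774, with a fold enrichment of 28.8 over the local expectation and a −log10 q of 61.4. Its summit held 43 overlapping fragments, the pileup. The exact 95% Poisson interval of that pileup was 31.1 to 57.9 fragments, which is 21.04 to 38.6-fold with the expectation held fixed. The untreated list had 0 summits within 100 kb of Nppb or Nppa. Its nearest was 762 kb from the doxycycline summit and 744 kb from Nppb, at 5.50-fold and 6 fragments. The untreated list begins at 4 fragments, so a smaller pileup at this place would not have been listed.

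Within the doxycycline list this peak stood near the top by fold, −log10 q, pileup and width. It ranked 6 of 3640 by fold and 23 by −log10 q. A pileup of 43 or more was reached by 30 doxycycline peaks (0.824%), and 1.46% of the list was at least as wide as its 525 bp. The median doxycycline peak had 7 fragments, 5.50-fold enrichment and a width of 160 bp. The local expectation at the summit was 0.526 fragments, 1.43 times the background of 0.368.

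The peak lay between genes and upstream of both hormone genes. Its summit was 16.2 kb from the interval of Nppb (gene ID 18158, chromosome 4, 147985786 to 147987205, plus strand) and 31.2 kb from that of Nppa (gene ID 230899, 148000722 to 148002074, plus strand). The genes are 1420 and 1353 bp long, and 13.5 kb separates them. From the start sites in the promoter table the distances were 16.3 kb for Nppb and 31.2 kb for Nppa. No annotated gene covers the summit. In all, 8 protein-coding genes lay within 100 kb of it, so its place does not assign it to a peptide gene.

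Nppb was the nearest of the 8. On the other side, 2510039O18Rik was 22.3 kb away, Plod1, which encodes a collagen lysyl hydroxylase, 32.8 kb, and Mfn2, a mitochondrial fusion gene, 64.7 kb. Beyond Nppa came the chloride transporter gene Clcn6 at 34.7 kb. These genes and Nppb lay within 65 kb of the summit. The next doxycycline peak lay inside the ubiquitin ligase gene Fbxo6, 182 kb from the first and 149 kb from Nppa, outside the distance used here (chromosome 4, 148151039 to 148151415). It was enriched 10.96-fold with 14 fragments (95% Poisson interval 7.65 to 23.5).

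**Figure D2:**
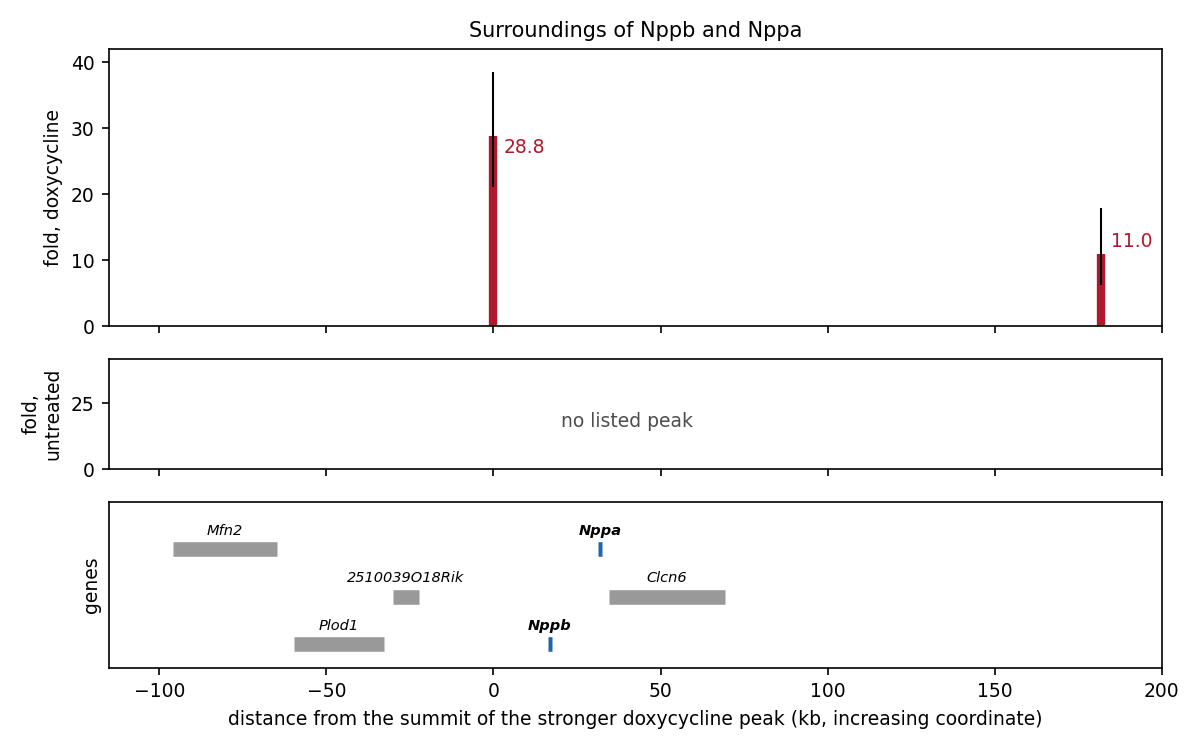
Fold enrichment of listed peaks around Nppb and Nppa in the doxycycline list (top) and the untreated list (middle), against distance in kb from the summit of the stronger peak. Thin lines are 95% Poisson intervals of the pileup carried to fold, and the lowest panel shows the protein-coding genes within 65 kb of that summit. The 28.8-fold and 10.96-fold peaks are the 2 doxycycline peaks in the stretch, and the untreated panel is empty.

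Nppc, the third peptide gene (gene ID 18159, chromosome 1, 86666293 to 86670573, minus strand), had no summit of either list within 100 kb. Its nearest doxycycline summit was 144 kb downstream, at 5.12-fold and 6 fragments. Its nearest untreated summit was 119 kb upstream, at 3.93-fold and 4 fragments, the smallest pileup of that list. These were the summits closest beyond the 100 kb limit, and among the included ones the farthest from its gene was the 28.8-fold peak seen from Nppa.

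Among the receptors, Npr3 (gene ID 18162, chromosome 15, 11839896 to 11907837, minus strand) had 1 doxycycline summit, 3.17 kb beyond its downstream end and 70.6 kb from its start site. The peak (11836670 to 11836806) was enriched 5.12-fold with a −log10 q of 3.07. Its pileup of 6 fragments has a 95% Poisson interval of 2.20 to 13.1, below that of the peak upstream of Nppb. The same fold and −log10 q were given to 671 peaks of the list, and 48.8% of the list had a −log10 q at or below it. No annotated gene covers the summit, and Npr3 was the single protein-coding gene within 100 kb. The nearest untreated summit lay 463 kb from Npr3, at 5.49-fold.

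Npr2 (gene ID 230103, chromosome 4, 43629015 to 43651437, plus strand) was the member with an untreated summit. That peak (43606647 to 43606780) lay 22.3 kb upstream of the gene, within the long non-coding RNA gene Gm42279, at 6.29-fold with a −log10 q of 4.81. Its pileup was 7 fragments (95% Poisson interval 2.81 to 14.4), and 324 untreated peaks shared its fold and −log10 q. It ranked 413 of 4379 by −log10 q. Npr2 was 1 of 15 protein-coding genes within 100 kb of it, and Rgp1 and Msmp were closer, at 19.2 and 22.2 kb. The nearest doxycycline summit was 578 kb from Npr2, at 4.39-fold and 5 fragments.

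Npr1 (gene ID 18160, chromosome 3, 90450591 to 90465928, minus strand), whose product is the receptor of the hormones from Nppa and Nppb, had no summit of either list within 100 kb although 11 other protein-coding genes lie in its window. Its nearest doxycycline summit was 184 kb downstream at 5.07-fold, and its nearest untreated summit 397 kb upstream at 7.07-fold. The peaks near Npr3 and Npr2 rested on 6 and 7 fragments, and their Poisson intervals reach down to 2.20 and 2.81 fragments. When a −log10 q of 5 or more was required, Nppb and Nppa kept their doxycycline summit, Npr3 and Npr2 lost theirs, and the share of all genes with a summit was 13.7% for doxycycline and 3.33% for untreated. With the top 1000 peaks of each list instead, Npr2 kept its untreated summit and Npr3 lost its doxycycline summit. The shares of all genes were then 11.6% for doxycycline and 8.15% for untreated. None of the 3 peaks overlapped a peak of the other list, and overlap was rare throughout, at 2.01% of all doxycycline peaks and 1.71% of all untreated peaks.

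**Figure D3:**
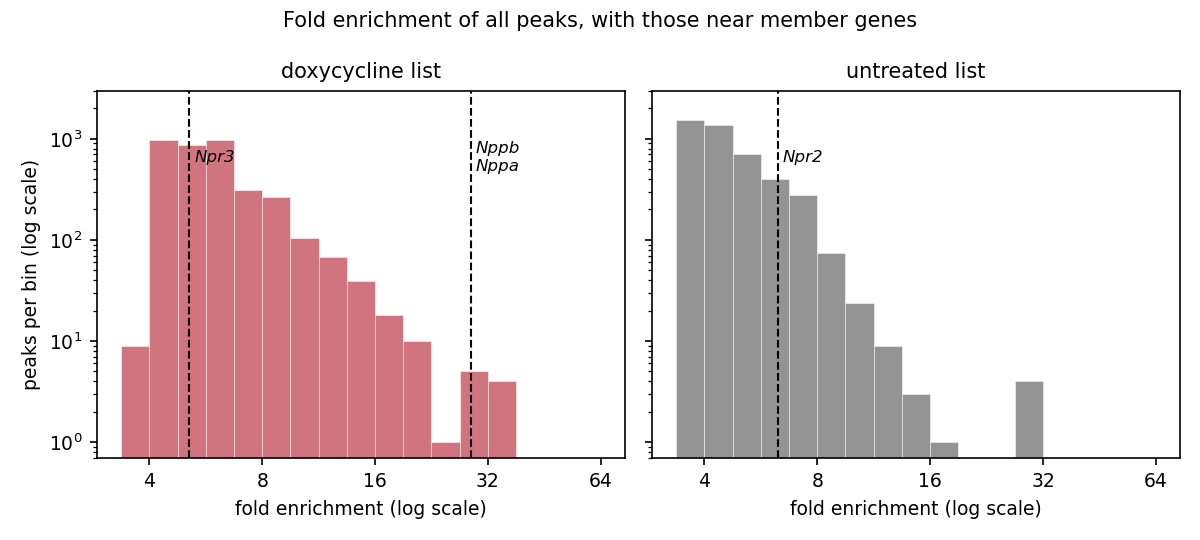
Number of peaks (log scale) by fold enrichment (log scale) in the doxycycline list (left) and the untreated list (right), with dashed lines at the peaks near member genes. An untreated peak above 64-fold is not drawn. The peak upstream of Nppb and Nppa lies in the sparse upper end of the doxycycline list, that near Npr3 lies below the list median of 5.50-fold, and that near Npr2 lies above the untreated median of 4.72-fold.

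Few genes had a peak of the fold enrichment seen upstream of Nppb. The count was made by fold, where this peak ranked 6, against 23 by −log10 q. Within 100 kb, 20 protein-coding genes (0.0914%) had a strongest doxycycline peak of at least 28.8-fold, and these genes share 4 peaks. These counts include the peak upstream of Nppb itself and the 8 protein-coding genes within 100 kb of it. Likeness to Nppb was measured as the difference in log2 fold of the strongest doxycycline peak, over 1539 peaks with a gene that has no untreated summit within 100 kb, taking the nearest such gene. The most alike were the gamma-secretase activator gene Gsap (35.1-fold, 62.01 kb away, a log2 difference of 0.28), the beta-arrestin gene Arrb1 (36.5-fold, inside the gene, 0.34) and the chromatin remodeller gene Chd3 (22.7-fold, inside the gene, 0.35). Pwwp2b (22.04-fold, 32.3 kb, 0.39) and Gm40369 (21.2-fold, 1.66 kb, 0.44) followed. Their pileups ran from 28 fragments at Gm40369 to 49 at Arrb1, against 43 upstream of Nppb.

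Genes that process the peptides or belong to cyclic GMP signalling more widely had peaks in both lists. The 30 genes included 8 other guanylyl cyclases, some of which answer other signals such as nitric oxide or guanylin peptides. These cyclases gave 5 of the 13 genes with an untreated summit and 0 of the 13 with a doxycycline summit. Of all 30 genes, 13 lay within 100 kb of a doxycycline summit and 13 within 100 kb of an untreated one, 5 had both and 9 neither. Each share was 43.3% (95% interval 25.5 to 62.6%), against 31.3% of all genes for doxycycline and 30.2% for untreated summits. Both shares of all genes lie inside that interval, and no difference was tested. The window includes the gene itself, so long genes such as Prkg1 (1201 kb) have wider windows. By distance to the gene start, 11 of the 30 had a doxycycline summit and 7 an untreated one. Over all genes the shares were then 27.4% and 26.0%. The median fold of the strongest doxycycline peak was 5.85 at the 13 genes and 5.85 over all 6856 genes with one. For untreated peaks it was 4.72 at the 13 genes and 4.72 over 6611 genes.

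Doxycycline summits lay near 3 of 5 processing and clearance genes and untreated summits near 2, against 31.3% and 30.2% of all genes. Furin, a proprotein convertase that cleaves peptide precursors, had a doxycycline peak at 6.39-fold, 37.6 kb away and nearer to Blm, and Pcsk6, a related convertase, had one inside the gene at 5.85-fold. Ide, which encodes insulin-degrading enzyme, had a doxycycline peak at 4.39-fold and 5 fragments, 89.0 kb away and inside Cpeb3. It also had an untreated peak at 5.50-fold (20.2 kb). Mme, which encodes neprilysin, an enzyme that degrades the peptides, had 2 untreated peaks, the strongest inside the gene at 4.72-fold. Corin, the protease that activates atrial natriuretic peptide, and Ostn, whose peptide binds Npr3, had no summit.

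The other guanylyl cyclases had a doxycycline summit at 0 of 8 genes and an untreated summit at 5, against 31.3% and 30.2% of all genes. Of these 5, 2 share 1 peak. Gucy1a2, a subunit of the soluble cyclase that nitric oxide activates, had 2 untreated peaks, the strongest inside the gene at 6.29-fold. Gucy1a1 and Gucy1b1, which encode further subunits, shared 1 untreated peak of 5 fragments (4.72-fold, 97.5 and 37.03 kb away). Gucy2c, the receptor of gut guanylin peptides, and Gucy2e each had an untreated peak of 4 fragments, the smallest of the list. No difference between the lists was tested here.

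Cyclic GMP-dependent kinases and their substrates had a doxycycline summit at 6 of 7 genes and an untreated one at 3. Over all genes the shares were 31.3% and 30.2%. The strongest doxycycline peak at each of the 6 had 5 to 8 fragments, against a list median of 7. Irag1 (Mrvi1 in the gene table), a kinase substrate that restrains calcium release, had a doxycycline peak inside the gene at 6.58-fold. Pln, which encodes phospholamban, the inhibitor of the cardiac calcium pump, had one at 5.85-fold, 81.8 kb away and nearer to Cep85l. Rgs4, a regulator of G protein signalling, had one at 5.80-fold, 85.6 kb away and nearer to Rgs5. The kinase genes Prkg1 and Prkg2 and the actin regulator gene Vasp had peaks of both lists. Prkg1, 1201 kb long, had a doxycycline peak at 4.39-fold and the strongest of its 3 untreated peaks at 8.65-fold, both inside the gene. Prkg2 had a doxycycline peak at 5.12-fold, 65.5 kb away and inside Bmp3, and 2 untreated peaks, the strongest at 3.93-fold inside Prkg2. Vasp had a doxycycline peak at 5.63-fold, 73.8 kb away and inside Ercc1, and an untreated peak at 6.66-fold, 61.6 kb away. The folds of the lists have different backgrounds.

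Phosphodiesterases, which break cyclic GMP down, had a doxycycline summit at 2 of 5 genes and an untreated one at 2 others. Over all genes the shares were 31.3% and 30.2%. Pde5a, the target of sildenafil, had a doxycycline peak inside the gene at 7.31-fold and 9 fragments. Pde2a had one at 6.68-fold, 35.7 kb away and nearer to Arap1. Pde3a had its strongest untreated peak at 7.56-fold, 81.5 kb away, and Pde9a, which prefers cyclic GMP, one at 5.50-fold and 64.02 kb. Of the gated channel genes Cnga1 alone had summits, a doxycycline peak at 5.12-fold (32.3 kb away and nearer to Nipal1) and an untreated one at 3.93-fold inside the gene. The tallest doxycycline peak of the 30 genes was 16.1 kb from the scaffold gene Pdzk1, at 18.3-fold and 24 fragments (95% Poisson interval 15.4 to 35.7), and it lay inside Cd160. At a −log10 q of 5 or more, 5 of the 30 genes had a doxycycline summit (Furin, Irag1, Pde2a, Pde5a and Pdzk1) and 3 an untreated one (Prkg1, Vasp and Pde3a), against 13.7% and 3.33% of all genes.

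**Figure D4:**
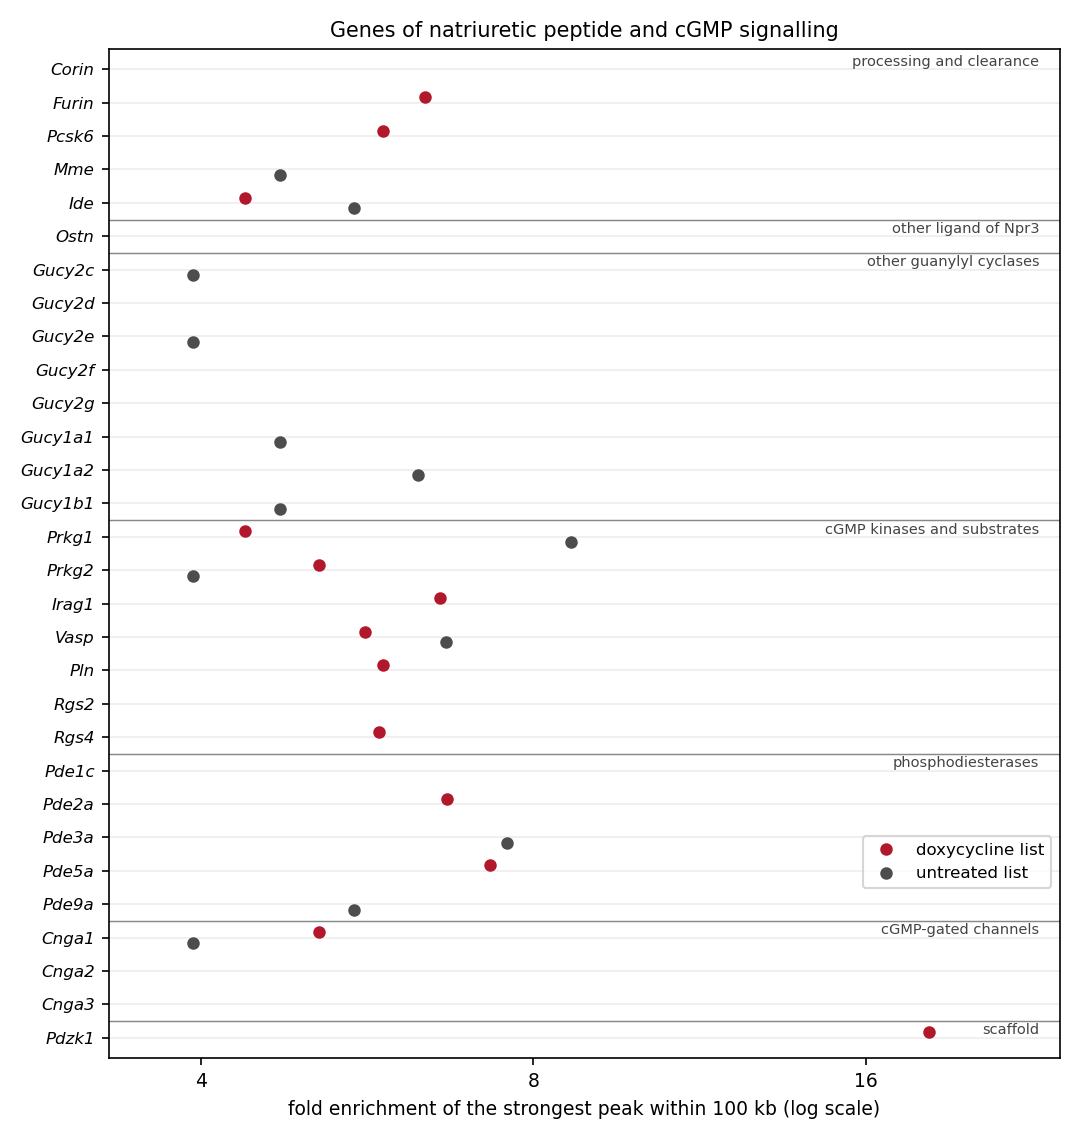
Fold enrichment (log scale) of the strongest listed peak within 100 kb of 30 genes that process natriuretic peptides or act in cyclic GMP signalling, grouped by role. Doxycycline points are drawn above untreated points in each row, and a row without points has no listed summit. Pdzk1 stands at 18.3-fold, and the other points lie at 8.65-fold or below.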

How the data were processed

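Binding was measured in 4 streptavidin pull-down and 2 input libraries, grouped by their titles. Peak calling with MACS2 2.1.1 on mm10, after Bowtie2 2.3.2 and SAMtools 1.5, is listed per the submitters' processing notes, with settings and pooling not given in the sources used here. Every deposited row gives a fold enrichment (a ratio), a −log10 p and a −log10 q from the authors' peak caller. None of these values compares the lists. The deposited score column was not used, and the deposited summit offset gave positions, printed counted from 1. Fragment totals were not analysed here.

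Rows sharing an interval were merged at the highest −log10 q (3725 to 3640 doxycycline, 4428 to 4379 untreated). The pileup (fragments at the summit) was recovered by assuming that fold is (pileup + 1) over (expectation + 1) and that p is the upper Poisson tail. Whole pileups matched the −log10 p within 0.01 for 99.8% of peaks in each list. Intervals cover counting error only. Genes came from a RefSeq table on GRCm38.p6, strands and sequences from its promoter table, which held all 6 members. Peak sequences need a genome, which was not used here.

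Named genes were the members, genes around their peaks, the 30 pathway genes and the 5 most alike. A further gene near a peak is not reported here. Members and lists were chosen with earlier results of these data known. No test was made with 1 list per condition. Simulated data returned 100% of 1993 pileups and of 200 planted summits. The pileups were simulated with the assumed formulas for fold and p, so their return checks the code and not that assumption. Software was Python 3.11.15 with scipy 1.17.1, numpy 2.4.6, matplotlib 3.10.9 and pandas 2.3.3.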

Additional observations from a re-analysis of the deposited data

How the results depend on the processing

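Alternatives were summits within 50 or 200 kb, a minimum −log10 q of 5, each list's top 1000 peaks, every row kept, any base of the peak, distance to the gene start, the row of highest fold, other overlap rules and looser GLI motifs. No paired analysis was possible because only a single list per condition, with no column per replicate, was analysed, and for the same reason no replicate could be left out. Within 200 kb, 5 members had a doxycycline summit (6 summits) against 3 (2 summits) within 100 kb, and 2 had an untreated summit (2 summits) against 1. At that distance the shares of all genes were 48.8% for doxycycline and 47.6% for untreated summits. At a minimum −log10 q of 5, 1 doxycycline and 0 untreated summits were left, with 0 members near an untreated one. Among the top 1000 peaks, 1 doxycycline summit and 1 untreated summit, that of Npr2, were left. Fewer peaks and longer distances move these counts by construction. The pathway genes with a doxycycline summit numbered 13 within 100 kb, 8 within 50 kb, 18 within 200 kb, 5 at that −log10 q and 3 in the top 1000. Those with an untreated summit numbered 13, with 8 within 50 kb, 20 within 200 kb, 3 at that −log10 q, 6 in the top 1000 and 7 by distance to the gene start. Over all genes the doxycycline and untreated shares were 20.05% and 18.8% within 50 kb, 13.7% and 3.33% at that −log10 q, 11.6% and 8.15% for the top 1000, and 27.4% and 26.0% by gene start. The 28.8-fold peak of Nppb and Nppa was rerun only with the row of highest fold and within 50 or 200 kb, and was the same. It lay 16.2 and 31.2 kb from these genes, and the next doxycycline peak was weaker, at 10.96-fold. The 2 distances therefore could not change it, and its sameness is no sign of robustness. Since lists start at 5 doxycycline and 4 untreated fragments, a site with fewer fragments would not be listed.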
